A study of Mus musculus with 18 samples.

Results

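NKT17 and NKT2 cells of the SKG thymus were compared across all genes, using 6 of the 18 RNA-seq libraries of the series: 3 of SKG NKT17 cells and 3 of SKG NKT2 cells. The cells are invariant natural killer T (iNKT) cells of Mus musculus on the BALB/c background. In SKG mice Zap70 has a point mutation. It encodes the kinase that binds the engaged T cell receptor (TCR) complex and passes its signal on, and the mutant protein signals weakly. The WT mice came from the same cross of SKG with BALB/cJ as the SKG mice, bred apart for a further generation. Their 3 NKT17 and 3 NKT2 libraries were compared only to ask which subset differences were also present without the mutation. All 18 libraries entered one fit, which set the filter on low counts, the scaling and the spread behind each p-value. Neither the age of the mice nor the number of animals behind a library is given in the labels, so p-values measure the spread between libraries.

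iNKT cells recognise lipids that CD1d presents, and they leave thymic selection with a ready effector programme. NKT2 cells express the transcription factor PLZF (encoded by Zbtb16) at a high level and make IL-4, whereas NKT17 cells make IL-17. NKT17 cells respond to IL-23 and IL-1 and bear the chemokine receptor CCR6. Both subsets were sorted as CD1d tetramer-binding, CD49a-negative, ICOS-high cells. NKT17 cells were then taken as syndecan-1 (Sdc-1) positive, and NKT2 cells as Sdc-1 negative with high CD4 and TCRβ. Transcripts of Sdc1 and Cd4 therefore describe the sort and are no finding. Since the libraries are from bulk cells, fewer cells that express a gene and less RNA of it per cell cannot be told apart.

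The promoters of 5 genes that mark the subsets are shown first, because these cytokines, cytokine receptor and chemokine receptor define NKT17 and NKT2 cells and their transcripts separated the subsets. Each is the 250 bases before the start of the RefSeq transcript that begins farthest upstream, 5′ to 3′ on the strand of the gene, on build GRCm38.p6. Capitals mark AGGTCA, a core sequence that many nuclear receptors bind, or AGATAA, a form of the motif bound by GATA factors, on either strand. The NKT17 genes are Il17a (chr1:20730655-20730904, plus strand), Il23r (chr6:67491856-67492105, minus strand) and Ccr6 (chr17:8235793-8236042, plus strand). The NKT2 genes are Il4 (chr11:53618666-53618915, minus strand) and Il13 (chr11:53634703-53634952, minus strand).
Il17a: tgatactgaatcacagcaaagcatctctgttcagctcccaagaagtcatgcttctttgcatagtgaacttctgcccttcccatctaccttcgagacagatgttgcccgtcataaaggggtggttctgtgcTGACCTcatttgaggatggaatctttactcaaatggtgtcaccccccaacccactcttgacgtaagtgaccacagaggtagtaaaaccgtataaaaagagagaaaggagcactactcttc
Il23r: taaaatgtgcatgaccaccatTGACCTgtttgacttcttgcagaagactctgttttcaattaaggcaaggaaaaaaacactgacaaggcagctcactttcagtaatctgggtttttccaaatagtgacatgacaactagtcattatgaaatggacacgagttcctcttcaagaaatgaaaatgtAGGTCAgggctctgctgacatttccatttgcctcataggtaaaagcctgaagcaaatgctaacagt
Ccr6: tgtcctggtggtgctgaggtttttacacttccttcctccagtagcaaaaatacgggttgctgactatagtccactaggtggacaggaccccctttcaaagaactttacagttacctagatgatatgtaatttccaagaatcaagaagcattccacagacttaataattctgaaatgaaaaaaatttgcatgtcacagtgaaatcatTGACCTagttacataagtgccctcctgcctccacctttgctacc
Il4: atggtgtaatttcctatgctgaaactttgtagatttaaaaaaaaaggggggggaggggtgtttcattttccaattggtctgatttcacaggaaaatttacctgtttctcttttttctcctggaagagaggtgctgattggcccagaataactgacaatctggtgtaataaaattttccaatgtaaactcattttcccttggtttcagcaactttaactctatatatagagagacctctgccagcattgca
Il13: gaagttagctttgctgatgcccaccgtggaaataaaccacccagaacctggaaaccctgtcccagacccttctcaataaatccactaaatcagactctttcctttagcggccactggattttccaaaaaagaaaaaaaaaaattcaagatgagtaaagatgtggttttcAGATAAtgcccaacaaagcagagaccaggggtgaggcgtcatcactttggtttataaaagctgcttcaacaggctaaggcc
The Il17a window held 1 copy of AGGTCA, 120 bases before the start, the Ccr6 window held 1 copy at 44 bases and the Il23r window held 2 copies, at 229 and 66 bases. Neither the Il4 nor the Il13 window held AGGTCA. The Il13 window held AGATAA once, 81 bases before the start. Such matches are common, and they describe the letters only. AGGTCA was found in 14.0% of all 32851 promoters of the same length in the table, in 10.8% of those of genes tested, in 13.8% of the 1115 that belong to genes called higher in SKG NKT17 and in 10.2% of the 851 of genes called lower. AGATAA was found in 9.99% of all promoters, in 5.97% of those of genes tested, in 7.35% of those of genes called higher and in 7.99% of those of genes called lower. A promoter was matched by symbol for 847 of the 1171 genes called higher and for 656 of the 919 called lower, and genes with several starts count once for each.

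Libraries of the 4 groups used held 4391029 to 7055288 counts each, and between 12099 and 13071 genes had at least 1 count. The unit of level is CPM, a count divided by the TMM-scaled size of its library and set to a common total of 1000000, listed for libraries 1, 2 and 3 of a group in that order. CPM are not divided by gene length, so they compare one gene between groups and not genes with each other. A gene was called if its adjusted p (edgeR quasi-likelihood, Benjamini-Hochberg) was under 0.1 and it changed by at least 1.5-fold. All log2 fold changes are NKT17 over NKT2 with their standard error (SE), for 3 libraries against 3. Genes named outside the stated rule were picked for their role after their values were seen; they are Ahr, Aqp3, Fos, Gimap6, Igj, Il22, Il17f, Mki67, Ramp1, S1pr1, Xist and the markers of other cells.

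The sort was visible in the transcripts. Sdc1 was at 427, 399.6 and 418 CPM in SKG NKT17 and at 0.440, 0.391 and 0.321 CPM in SKG NKT2, and Cd4 was at 18.3, 21.6 and 19.5 CPM against 237, 199 and 225 CPM. Icos, which both gates require, was at 965, 1005 and 943 CPM in NKT17 and 860.1, 664 and 679.9 CPM in NKT2, with a log2 fold change of 0.40 ± 0.13 that stayed under 1.5-fold. Itga1, which encodes CD49a, was at or under 0.220 CPM in all 6 libraries. Zap70 itself (chr1:36818695-36839663 on NCBIM37) was at 564, 452 and 563 CPM in SKG NKT17 and 393, 359.9 and 436 CPM in SKG NKT2. All 3 NKT17 libraries lay above the 3 NKT2 libraries, with a log2 fold change of 0.41 ± 0.12 (adjusted p = 0.0118), which is short of 1.5-fold and so was not called. In WT the same comparison gave 0.60 ± 0.12 (adjusted p = 3.8e-04), and the difference between SKG and WT was not called (-0.19 ± 0.16, adjusted p = 0.773). Counts per gene cannot show the point mutation, so Zap70 does not check the genotype labels.

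In SKG mice 2090 of 11118 genes tested (18.8%) were called between NKT17 and NKT2. Of these, 1171 (10.5% of the genes tested) were higher in NKT17 and 919 (8.27%) were lower. A change of at least 4-fold was fitted for 479 genes higher and 329 lower in NKT17, and of at least 16-fold for 216 and 93. In 76 of the genes called higher no SKG NKT2 library held a single count, and in 34 of those called lower no SKG NKT17 library did. The 3 libraries of one subset lay wholly apart from the 3 of the other in 2024 of the 2090 genes called, as they did in 40.3% of all genes tested. The median log2 fold change over all genes tested was 0.01.

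**Figure D1:**
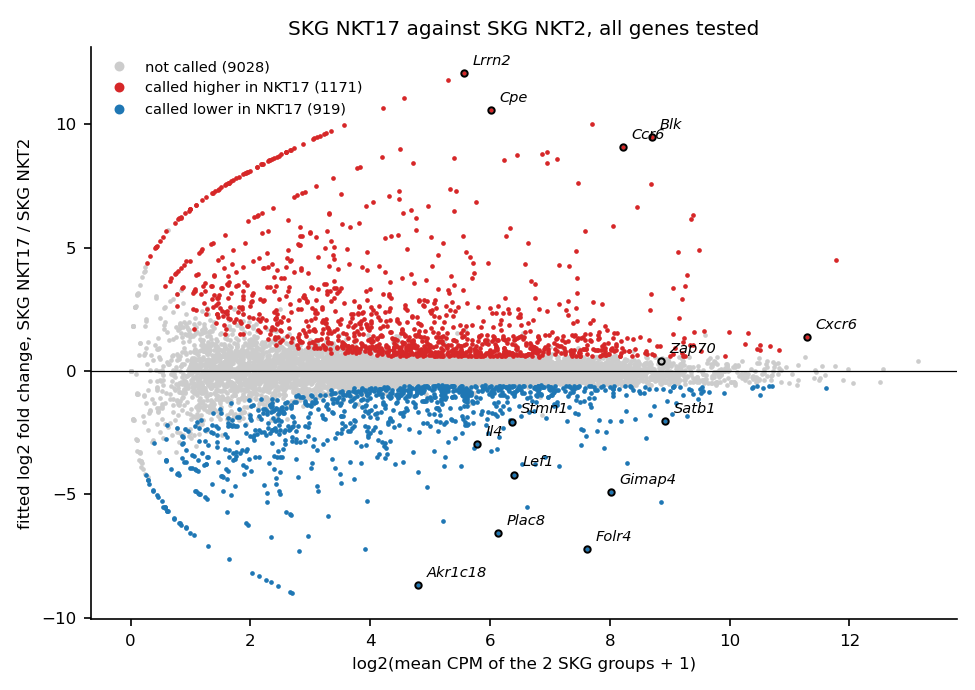
Each point is 1 of 11118 genes tested, placed by log2(mean CPM of both SKG groups + 1) on the x axis and by the fitted log2 fold change of SKG NKT17 over SKG NKT2 on the y axis. The 1171 genes called higher in NKT17 are red, the 919 called lower are blue, and Zap70 (0.41) lies among the genes not called.

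The NKT17 programme was present in SKG NKT17 cells. Of 24 NKT17 genes tested, 21 were higher and 2 lower in SKG NKT17, against 10.5% and 8.27% over all genes tested. Their median log2 fold change was 8.02, or 6.32 with genes that had no count in NKT2 set at their lower bound. Sdc1, used in the sort, is one of the 21. The members were chosen as known NKT17 genes with earlier results of these data known, so the count describes how large the differences are and is no independent evidence of their direction.

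Ccr6 (chr17:8429077-8449992 on NCBIM37), whose promoter is printed above, was at 593, 618 and 565 CPM in SKG NKT17 and 0.220, 2.74 and 0.321 CPM in SKG NKT2 (log2 fold change 9.08 ± 0.62, adjusted p = 1.1e-07). The NKT17 libraries agree within 60 CPM for Ccr6, and the NKT2 libraries are near 0. Il23r, the IL-23 receptor chain, was at 236, 251 and 246 CPM against 0.220, 0.978 and 0.321 CPM (8.86 ± 0.27, adjusted p = 2.7e-16). Il1r1, the signalling IL-1 receptor, was at 216, 236 and 246 CPM against 1.10, 0 and 0.481 CPM (8.79 ± 0.58). Il17re, a receptor chain for IL-17C, was at 249.6, 233 and 251 CPM against 0.880, 0.391 and 0.802 CPM (8.42 ± 0.40). All 3 receptors were thus near 0 in every NKT2 library.

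The cytokines themselves were low in these sorted cells. Il17a was at 10.5, 8.02 and 6.94 CPM in SKG NKT17 and was not counted in any SKG NKT2 library, which makes it at least 14.7-fold higher (adjusted p = 0.00373, against 3 counts per library). Il22, the epithelial-acting cytokine often made with IL-17, was at 9.20, 10.8 and 10.3 CPM and also had no count in SKG NKT2, at least 17.5-fold higher (adjusted p = 6.8e-04). Il17f stayed under the filter on low counts, at 0.708, 1.39 and 1.69 CPM in SKG NKT17. Blk, a Src family kinase of B cells and IL-17-producing T cells, was at 858, 668 and 954 CPM against 2.42, 0.587 and 0.642 CPM (9.47 ± 0.37, adjusted p = 1.2e-11). The water and glycerol channel Aqp3 was at 294, 301 and 309 CPM against 15.2, 20.3 and 12.5 CPM (4.24 ± 0.22), and the membrane proteins Tmem176a and Tmem176b were 6.34 and 6.17 higher on the log2 scale. Il7r, which is high in both subsets, rose less, from 1134, 1036 and 940.0 CPM to 1794, 1904 and 1911 CPM (0.85 ± 0.10, adjusted p = 9.4e-07). Of the 3 members that were not higher, Zbtb16 (PLZF) fell in NKT17, from 229, 154 and 196 CPM to 98.5, 111 and 122 CPM (-0.81 ± 0.19, adjusted p = 0.00393), and the semaphorin receptor Nrp1 fell from 37.0, 58.3 and 54.4 CPM to 9.76, 17.6 and 17.1 CPM (-1.76 ± 0.36). Ramp1, a receptor-modifying protein, was not called, at 1699, 1628 and 2023 CPM against 1326, 1311 and 1421 CPM.

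**Figure D2:**
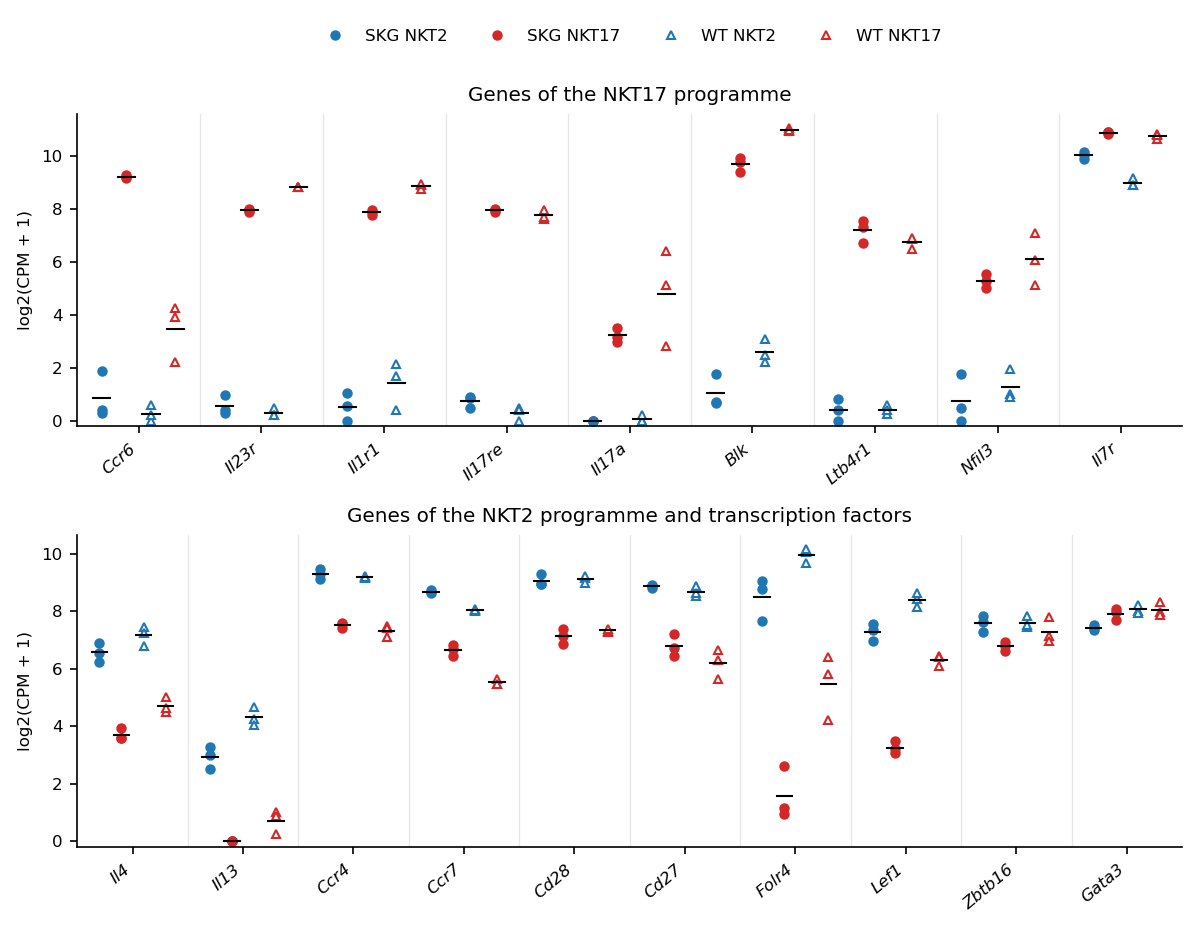
Level of 19 genes in each library, as log2(CPM + 1) on the y axis: filled circles are SKG and open triangles WT, blue is NKT2 and red NKT17, and the black bar is the mean of 3 libraries. Ccr6 stands near 9 in the 3 SKG NKT17 libraries and between 2 and 5 in the 3 WT NKT17 libraries, and Gata3 differs little between any groups.

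NKT2 genes were lower in SKG NKT17 in most cases. Of 19 tested, 15 were lower and 0 higher, with a median log2 fold change of -2.17. Over all genes tested 8.27% were lower and 10.5% higher. Cd4, which the sort used, is one of the 15, and the direction is again fixed by how such a list is chosen. Il4 (chr11:53416484-53432171 on NCBIM37) was at 119, 75.5 and 93.9 CPM in SKG NKT2 and 14.6, 11.2 and 11.1 CPM in SKG NKT17 (-2.96 ± 0.33, adjusted p = 1.9e-06), so every NKT2 library was more than 5 times the level of every NKT17 library. Il13, the neighbouring type 2 cytokine, was at 7.04, 4.69 and 8.82 CPM in SKG NKT2 and had no count in SKG NKT17, which is at least 13.6-fold lower in NKT17 (adjusted p = 1.8e-06). Il5 was counted in 1 of the 6 libraries, and Il10 in none.

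Several receptors of the NKT2 list fell. The skin and lung homing receptor Ccr4 went from 715, 555 and 626 CPM in NKT2 to 169, 195 and 187 CPM in NKT17 (-1.78 ± 0.31, adjusted p = 7.3e-04), the lymph node homing receptor Ccr7 from 429, 396 and 413 CPM to 86.6, 102 and 113 CPM (-2.04 ± 0.35), and the gut and thymus homing receptor Ccr9 from 192, 144 and 236 CPM to 5.94, 3.66 and 2.81 CPM (-5.49 ± 0.66). The costimulatory receptors Cd28 and Cd27 fell from 629, 494 and 496 CPM to 115, 167 and 142 CPM (-1.94 ± 0.13, adjusted p = 1.4e-10) and from 452, 481 and 470.1 CPM to 105, 149 and 87.4 CPM (-2.04 ± 0.21). Folr4 (the file's symbol for Izumo1r) went from 527, 204 and 438 CPM to 5.09, 1.22 and 0.938 CPM (-7.22 ± 0.90, adjusted p = 6.3e-05). No NKT17 library reached the lowest NKT2 library for any of these 6 genes. The 4 members that were not called included Gata3, the type 2 master regulator, which was at 207, 271 and 253 CPM in NKT17 and 162, 171 and 184 CPM in NKT2 (0.50 ± 0.13) and was called, at 0.60, without SKG NKT17 replicate 1, and Il17rb, the IL-25 receptor chain and an NKT2 marker, at 381, 400.3 and 411 CPM against 527, 428 and 485 CPM (adjusted p = 0.706). The remaining uncalled members were Icos and Tcf7.

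The 10 largest rises that had at least 50 counts on average in the higher group were in genes nearly absent from NKT2 cells. Sdc1, used in the sort, was one. Lrrn2, a leucine-rich repeat protein, was at 94.8, 92.5 and 91.5 CPM in SKG NKT17 and 0 in each library in NKT2, at least 161-fold higher. The others with no count in NKT2 were Zp1 (at least 132-fold), the potassium channel Kcnk1 (at least 79.0-fold), the secreted Wnt modulator Dkk3 (at least 60.9-fold), the sodium-proton exchanger Slc9a2 (at least 37.4-fold), the cadherin Cdh10 (at least 31.6-fold), Igsf11 (at least 30.0-fold) and Fam167a (at least 28.9-fold). The carboxypeptidase Cpe was at 117, 110.0 and 157 CPM in NKT17 and had 1 count in the 3 NKT2 libraries, a ratio of 2009.8-fold (95% exact interval 360.4 to 79419) that covers counting error only. Each of these genes was called in WT as well.

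The 10 largest falls were of the same kind in the other direction. The complement component Hc, at 5.72, 14.1 and 13.2 CPM in NKT2, and the actin-linked LIM protein Pdlim4, at 10.3, 9.58 and 12.0 CPM, had no count in NKT17, at least 21.8-fold and 21.2-fold lower. The steroid dehydrogenase Akr1c18 was at 57.9, 20.5 and 83.1 CPM in NKT2 and 0, 0 and 0.375 CPM in NKT17, a ratio of 506-fold (95% exact interval 139.6 to 4182), and it varied about 4-fold among the NKT2 libraries. The sodium pump subunit Atp1b1 went from 29.7, 26.8 and 27.3 CPM to 0.142, 0.349 and 0 CPM, a ratio of 168-fold (95% exact interval 57.2 to 819). Plac8 fell from 136, 105 and 169.7 CPM to 2.55, 0.349 and 1.13 CPM (-6.58 ± 0.50, adjusted p = 3.6e-08), and the cyclic nucleotide phosphodiesterase Pde2a from 66.9, 48.3 and 99.5 CPM to 1.13, 1.57 and 0.375 CPM (-6.07 ± 0.76). The remaining 4 were Folr4, Pstpip2 (16.5, 8.80 and 10.7 CPM in NKT2), the phosphatase Ptpn5 (14.7, 8.61 and 17.3 CPM in NKT2) and Tmie (21.8, 19.8 and 10.7 CPM in NKT2).

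Among 56 transcription factors of T cell lineages that were tested, 18 were higher and 18 lower in SKG NKT17, and the median was -0.05. Called members were 64.3% of those tested, against 18.8% over all genes. The nuclear receptor Rora rose from 83.2, 102 and 80.5 CPM to 171, 192 and 195 CPM (1.07 ± 0.18), Maf, which T cells that make IL-17 or IL-4 use, from 50.4, 35.2 and 31.8 CPM to 134, 168 and 126 CPM (1.87 ± 0.21), and the Ikaros family member Ikzf3 from 123, 86.3 and 111 CPM to 428, 325 and 381 CPM (1.83 ± 0.17). Nfil3, a basic leucine zipper factor, was at 37.4, 45.0 and 31.5 CPM against 2.42, 0.391 and 0 CPM (5.47 ± 0.75), and Ahr, the aryl hydrocarbon receptor, at 100.3, 94.8 and 82.9 CPM against 20.0, 22.7 and 25.7 CPM (2.02 ± 0.28, adjusted p = 1.5e-05). Klf6 was called higher (0.59 ± 0.23, adjusted p = 0.0796), but 12 of 15 alternative analyses did not call it. On the other side the chromatin organiser Satb1 fell from 790.1, 823 and 731 CPM to 174, 234 and 167 CPM (-2.03 ± 0.24, adjusted p = 1.1e-05), Myc from 208, 189 and 188 CPM to 93.4, 73.7 and 77.1 CPM (-1.26 ± 0.14), Ikzf1 from 408, 429 and 429 CPM to 243, 266 and 231 CPM (-0.77 ± 0.10), and Lef1, the partner of β-catenin that immature T cells express, from 162, 125 and 189 CPM to 8.21, 10.3 and 7.50 CPM (-4.19 ± 0.23, adjusted p = 1.4e-11). Uncalled factors included Id2 at 1241, 845 and 1097 CPM against 987, 827 and 979 CPM, Ets1 at 671, 703 and 670.1 CPM against 829.7, 899.6 and 858 CPM, and Tcf7 at 329.7, 331 and 319 CPM against 438, 369 and 314 CPM. Lef1 and Tcf7, which are related factors, therefore had very different fold changes (-4.19 and -0.19).

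Cytokine signalling genes differed in both directions. For the 3 lists of this paragraph, the shares to set beside the counts are 10.5% higher and 8.27% lower over all genes tested. Of 20 genes of the IL-17, IL-23 and IL-1 axis, 9 were higher and 1 lower in SKG NKT17. Il12rb1, the chain shared by the IL-12 and IL-23 receptors, rose from 94.6, 113 and 127 CPM to 286, 223 and 298 CPM (1.27 ± 0.18), and Il17ra, the common IL-17 receptor chain, from 83.4, 73.2 and 87.1 CPM to 126, 142 and 157 CPM (0.80 ± 0.13). The 1 member that fell was Il6ra, from 329, 315 and 300.3 CPM to 47.1, 74.6 and 56.8 CPM (-2.40 ± 0.23, adjusted p = 2.5e-07). Of 34 cytokine receptors, 11 were higher and 6 lower. Ifngr1, the ligand-binding IFNγ receptor chain, rose from 74.1, 78.0 and 87.3 CPM to 371, 292 and 349 CPM (2.08 ± 0.12, adjusted p = 9.5e-12), and Il18r1 from 89.8, 112 and 101 CPM to 279, 254 and 314 CPM (1.49 ± 0.15). Il21r fell from 129, 116 and 125 CPM to 12.6, 14.8 and 14.4 CPM (-3.14 ± 0.13, adjusted p = 5.6e-14) and Tgfbr3 from 94.4, 117 and 84.4 CPM to 31.8, 46.5 and 30.9 CPM (-1.43 ± 0.20). Of 17 genes of the type 2 axis, 5 were higher and 3 lower. Those that rose were not type 2 cytokines: they were the suppressors of cytokine signalling Socs3, from 28.6, 26.0 and 17.8 CPM to 306, 299 and 364 CPM (3.75 ± 0.31), and Socs1 (0.82 ± 0.15), the kinase Jak3 (0.84 ± 0.13), Maf and Nfil3. Irf4, a factor induced by TCR signals, fell with Il4 and Il13, from 43.8, 17.0 and 31.6 CPM to 5.38, 3.49 and 3.38 CPM (-2.90 ± 0.58, adjusted p = 7.7e-04).

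Trafficking receptors were among the groups with most calls: of 21 chemokine and migration receptors, 10 were higher, 8 lower and 3 not called. The called share was 85.7%, against 18.8% over all genes tested. Cxcr6 rose from 1271, 1440.5 and 1506 CPM to 3667, 3629 and 3544 CPM (1.36 ± 0.12, adjusted p = 1.6e-08). Ccr2, which draws cells to inflamed tissue, rose from 73.7, 86.3 and 93.9 CPM to 719, 706 and 778 CPM (3.12 ± 0.22, adjusted p = 1.1e-08). Ltb4r1, the leukotriene B4 receptor, was at 159, 104 and 183 CPM against 0, 0.782 and 0.321 CPM (8.54 ± 0.43). Falls other than Ccr4, Ccr7 and Ccr9 included Ccr8, from 216, 198 and 159 CPM to 37.2, 61.2 and 54.6 CPM (-1.91 ± 0.26), and Cxcr3, the receptor typical of IFNγ-producing cells, from 48.8, 52.2 and 104 CPM to 9.62, 3.49 and 4.50 CPM (-3.50 ± 0.43). S1pr1, the receptor for exit from the thymus, fell from 53.2, 66.1 and 54.2 CPM to 24.5, 16.6 and 20.4 CPM (-1.49 ± 0.36). Of 14 integrins, 5 were higher and 2 lower. Itgae and Itgb7, which pair to bind E-cadherin, both rose, Itgae from 448, 607 and 476 CPM to 1480.3, 1533 and 1526 CPM (1.57 ± 0.14) and Itgb7 from 862, 1076 and 993 CPM to 1779.9, 1584 and 2098 CPM (0.90 ± 0.12). Itgb3 rose from 25.5, 41.1 and 22.9 CPM to 132, 151 and 162 CPM (2.31 ± 0.30), and Itgb2, the chain of LFA-1, fell from 842, 861 and 932 CPM to 422, 440.3 and 526 CPM (-0.92 ± 0.11).

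**Figure D3:**
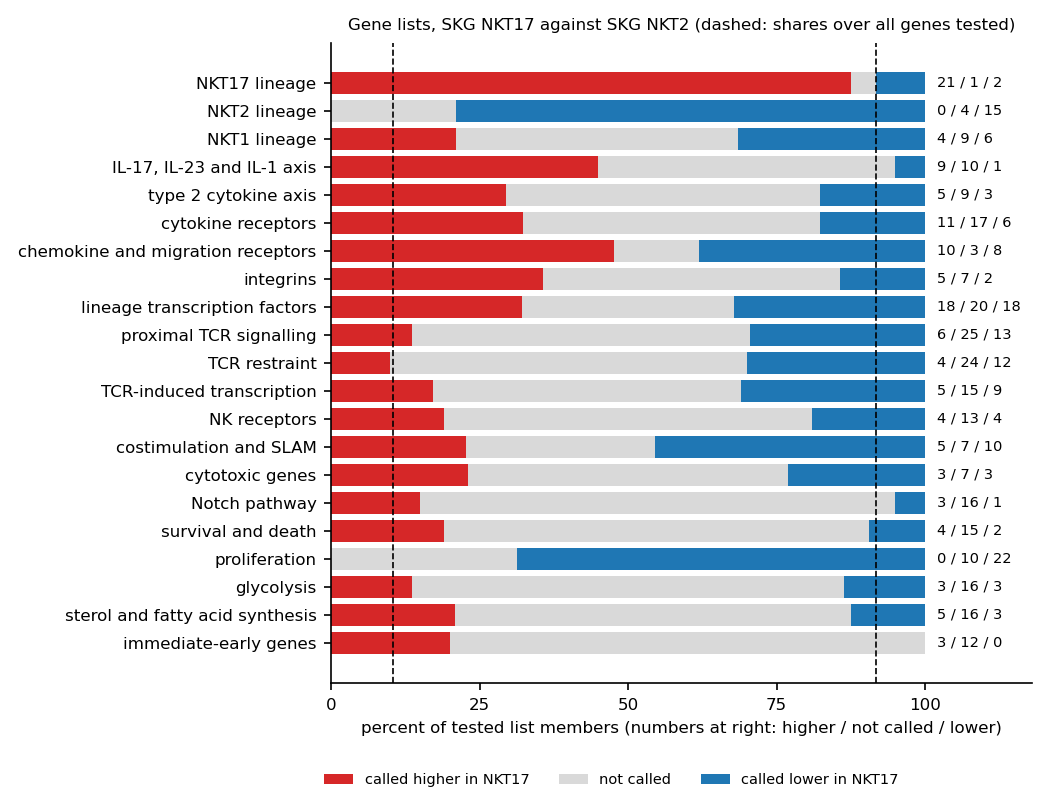
Share of the tested members of 21 gene lists that were called higher in SKG NKT17 (red), called lower (blue) or not called (grey), in percent on the x axis, with the numbers of members at the right. Dashed lines mark the shares over all genes tested (10.5% higher, 8.27% lower): NKT17 lineage is red in 21 of 24 members, and NKT2 lineage and proliferation are blue in 15 of 19 and 22 of 32.

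TCR signalling genes were called in both directions. The study itself named several of them, from subsets of BALB/c mice or from SKG against WT NKT1 cells. Of 44 proximal signalling genes tested, 6 were higher, 13 lower and 25 not called (median -0.02), so that 43.2% were called against 18.8% over all genes tested. The CD3 chains Cd3e and Cd3g were at 1966, 1840.3 and 2109.6 CPM and 1959.9, 1809.8 and 1818 CPM in SKG NKT17 and at 1596, 1559.8 and 1625 CPM and 1840.5, 1793 and 1875 CPM in SKG NKT2, neither of them called. The ζ chain gene Cd247 did fall, from 1038, 1031 and 844 CPM to 423, 477 and 441 CPM (-1.12 ± 0.12, adjusted p = 4.0e-07). The sort asked for high TCRβ of NKT2 cells only, and its part in the levels of TCR complex genes was not tested. The kinase Lck, which phosphorylates the chains that ZAP70 binds, was at 1612, 1669.7 and 1793 CPM against 2385, 2342 and 2452 CPM (-0.50 ± 0.10), short of 1.5-fold. Downstream of these, protein kinase C θ (Prkcq) fell from 334, 326 and 398 CPM to 147, 199 and 179 CPM (-1.01 ± 0.12), and the exchange factor Rasgrp1 rose from 89.8, 117 and 129.8 CPM to 325, 365 and 319 CPM (1.58 ± 0.17, adjusted p = 3.5e-07). Blk was the largest rise of the list.

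Genes that restrain the TCR were lower in 12 of 40 cases and higher in 4, against 8.27% and 10.5% over all genes tested. Cd5, whose level tracks TCR signal strength in thymocytes, fell from 354, 288 and 429 CPM to 82.4, 88.0 and 104 CPM (-1.97 ± 0.18, adjusted p = 1.0e-07), and the related Cd6 from 695, 630.4 and 766 CPM to 253, 322 and 319.9 CPM (-1.22 ± 0.13). The phosphatase SHP-1 (Ptpn6) went from 1029, 816 and 1005 CPM to 553, 417 and 580.3 CPM (-0.88 ± 0.17), and the diacylglycerol kinase Dgka from 451, 420.2 and 504 CPM to 219, 272 and 284 CPM (-0.83 ± 0.12). CD45 (Ptprc) fell from 1593, 1598 and 1731 CPM to 883, 1219 and 1033 CPM (-0.65 ± 0.13), a call that was lost without SKG NKT17 replicate 1, where the log2 fold change came to -0.54. The adaptors Sla and Sit1 rose, from 213, 176 and 211 CPM to 539, 428 and 602 CPM (1.39 ± 0.14) and from 153, 155 and 192 CPM to 319, 289 and 321 CPM (0.89 ± 0.12). Csk, Ptpn7 and Dok2 were among the uncalled members, with log2 fold changes of -0.17, 0.17 and 0.13. Of 29 genes that TCR signals induce, 9 were lower and 5 higher (48.3% called, against 18.8% over all genes tested). Egr2, an early target needed for iNKT development, fell from 102, 48.9 and 38.5 CPM to 17.8, 21.8 and 9.00 CPM (-1.95 ± 0.36, adjusted p = 4.8e-04), and Tox, a factor of thymic selection, from 184, 144 and 129 CPM to 65.7, 65.4 and 60.9 CPM (-1.25 ± 0.19). The IL-2 receptor α chain Il2ra rose from 21.6, 17.0 and 38.2 CPM to 157, 152 and 138 CPM (2.53 ± 0.30, adjusted p = 3.3e-06), and the repressor Bhlhe40 from 6.38, 7.82 and 10.9 CPM to 56.9, 60.7 and 52.1 CPM (2.74 ± 0.34). Egr1 was not called, at 123, 302 and 89.6 CPM against 345, 226 and 133 CPM, and its libraries overlapped. The immediate-early gene Fos was not called either, at 753, 1532 and 1084 CPM against 276, 664 and 299 CPM (adjusted p = 0.211). A fit of the 6 SKG libraries with a replicate block did call it (adjusted p = 6.4e-16). Its libraries did not overlap, and replicate 2 was the highest in both subsets. Of 15 immediate-early genes tested, 3 were higher and 0 lower, and this share called (20.0%) is close to the 18.8% over all genes tested.

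Costimulatory and SLAM family genes were lower more often than higher, 10 and 5 of 22 (68.2% called, against 18.8% over all genes tested). Cd28 and Cd27, described with the NKT2 genes, are among the 10, so this count is not separate from that of the NKT2 list. Slamf6 fell from 375, 256 and 344 CPM to 37.4, 45.7 and 40.1 CPM (-2.99 ± 0.33, adjusted p = 1.1e-05), the adhesion receptor Cd2 from 251, 267 and 294 CPM to 95.2, 70.8 and 78.9 CPM (-1.73 ± 0.32) and the B cell helper molecule Cd40lg from 385, 323 and 352 CPM to 187, 224 and 232 CPM (-0.72 ± 0.10). Tnfrsf25 (DR3) rose from 41.8, 69.2 and 51.3 CPM to 268, 234 and 279.9 CPM (2.27 ± 0.21, adjusted p = 3.5e-08), Cd226 from 81.6, 76.5 and 83.6 CPM to 212, 216 and 213 CPM (1.41 ± 0.12), and Tnfsf14, which encodes LIGHT, from 6.16, 2.93 and 5.13 CPM to 119, 80.9 and 94.3 CPM (4.37 ± 0.26, adjusted p = 2.1e-11).

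NKT1 genes, which belong to neither subset, were called in both directions, 4 of 19 higher and 6 lower in SKG NKT17. Over all genes tested 10.5% were higher and 8.27% lower. A fit of the 6 SKG libraries alone called 3 lower in place of 6. Ifng, Il12rb2 and Xcl1 did not pass the filter on low counts in that fit and were not tested in it. The T-bet gene Tbx21 was at 15.2, 12.3 and 24.2 CPM in SKG NKT2 and 2.97, 0 and 1.13 CPM in SKG NKT17 (-3.55 ± 0.61, adjusted p = 7.6e-04), Fasl at 112, 66.1 and 104 CPM and 11.7, 9.93 and 10.3 CPM (-3.13 ± 0.19, adjusted p = 5.4e-11), and Ifng, with 1 count over the NKT17 libraries, at 1.54, 3.13 and 2.25 CPM and 0, 0 and 0.188 CPM. Tbx21 and Fasl were thus lower in NKT17. Ifng was called lower too, but only in fits that also held libraries of other groups. The NK receptor gene Klrb1c was higher in NKT17, at 29.4, 23.7 and 23.6 CPM against 0.880, 0.196 and 0.160 CPM (5.99 ± 0.53), as was Klrk1 (NKG2D), at 27.6, 12.2 and 13.3 CPM against 1.98, 2.15 and 1.12 CPM (3.38 ± 0.50). Il2rb, Klrd1 and Ccl5 were not called. Among 21 NK receptors 4 were higher and 4 lower, and among 13 cytotoxic genes 3 were higher and 3 lower. These are 38.1% and 46.2% called, against 18.8% over all genes tested. Klrb1f rose from 3.74, 11.1 and 8.50 CPM to 50.9, 68.0 and 56.1 CPM (2.88 ± 0.28), Klra5, of a gene family whose members share sequence, fell from 8.80, 15.1 and 8.02 CPM to 0.142, 0.174 and 0.188 CPM, and perforin (Prf1) rose from 0.660, 1.96 and 1.93 CPM to 35.9, 21.4 and 24.2 CPM (4.11 ± 0.44, adjusted p = 2.6e-06).

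Cell cycle genes were lower in SKG NKT17 in most cases: 22 of 32 were called lower and 0 higher, with a median of -1.61. Over all genes tested 8.27% were called lower. Mki67, the standard mark of cycling cells, went from 23.5, 18.4 and 17.8 CPM in NKT2 to 3.40, 2.96 and 5.81 CPM in NKT17 (-2.30 ± 0.34, adjusted p = 1.7e-05). The replication helicase genes Mcm2, Mcm6 and Mcm3 fell by less, with log2 fold changes of -0.72 ± 0.13, -0.94 ± 0.15 and -1.09 ± 0.14. Stmn1, a tubulin-binding protein of dividing cells, fell from 119, 119 and 157 CPM to 33.1, 35.2 and 27.2 CPM (-2.05 ± 0.22, adjusted p = 1.1e-06). In WT 25 of the 32 were lower in NKT17, and none had a difference between SKG and WT that was called.

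Metabolic, survival and Notch genes were called in 20.0% to 33.3% of the members tested, against 18.8% over all genes tested. Of 22 glycolysis genes 3 were higher and 3 lower, including lactate transporters in opposite directions: Slc16a1 fell from 88.0, 85.1 and 87.4 CPM to 27.5, 25.8 and 24.8 CPM (-1.74 ± 0.18, adjusted p = 1.0e-07) and Slc16a3 rose from 4.18, 5.67 and 7.22 CPM to 28.2, 28.8 and 33.9 CPM (2.40 ± 0.31). Hexokinase 2 (Hk2) rose from 0.880, 1.96 and 1.28 CPM to 9.76, 11.0 and 13.1 CPM (3.01 ± 0.59). Of 24 sterol and fatty acid synthesis genes 5 were higher and 3 lower, with Scd2 going from 149, 144 and 138 CPM to 91.1, 92.4 and 92.8 CPM (-0.64 ± 0.13). Of 21 genes of survival and death 4 were higher and 2 lower: the BH3-only gene Bik rose from 14.3, 13.9 and 18.6 CPM to 107, 74.4 and 98.4 CPM (2.57 ± 0.23, adjusted p = 1.4e-08), while Bid fell from 56.5, 52.6 and 45.9 CPM to 16.1, 19.7 and 15.6 CPM (-1.59 ± 0.18). Of 20 Notch pathway genes 3 were higher and 1 lower. Dtx1, a target and modulator of Notch, was at 50.4, 48.1 and 49.1 CPM against 25.7, 22.9 and 21.2 CPM (1.08 ± 0.26), and Maml2, a Notch coactivator, fell from 38.1, 32.5 and 28.7 CPM to 10.8, 15.0 and 4.69 CPM (-1.69 ± 0.29).

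Markers of other cells were read in the same 6 libraries. Beside the counts of members called stand the shares over all genes tested, 18.8% called, 10.5% higher and 8.27% lower. B cell genes summed to 1.28 to 2.20 CPM in SKG NKT2 and 26.3 to 42.4 CPM in SKG NKT17. Of 10 such genes 1 passed the filter, Cd79b, at 39.2, 24.6 and 39.9 CPM in NKT17 and 0, 0 and 0.160 CPM in NKT2, while Pax5 had no count in any library. Plasma cell genes summed to 222 to 249 and 719.8 to 824 CPM, of which Sdc1, the sort marker, and Xbp1 made up most. Igj was at 23.5 CPM in SKG NKT17 replicate 1 and 4.4 CPM in SKG NKT2 replicate 1, and at 0 in the other 4 libraries. Myeloid genes summed to 186 to 204 and 269 to 311 CPM, nearly all of it Cst3, and Csf1r, Cd14 and Emr1 were at 0 in all 6 libraries. Double-positive thymocyte genes summed to 264 to 288 CPM in NKT2 and 829 to 878 CPM in NKT17, and of 8 tested 3 were higher and 2 lower. Rag1 was at 0 and Rag2 at no more than 0.160 CPM. Cd8a was at 9.76, 0.523 and 5.81 CPM in NKT17 and 0 in each library in NKT2, and Cd8b1 was at 36.8, 12.4 and 18.4 CPM in NKT17 against 2.86, 3.91 and 4.17 CPM in NKT2 (2.62 ± 0.67, adjusted p = 0.00644). The 2 members that fell were the signalling protein Themis, from 135, 159.8 and 129 CPM to 30.7, 51.1 and 36.4 CPM (-1.84 ± 0.30), and Cd1d1, from 55.0, 70.0 and 57.6 CPM to 36.7, 38.5 and 33.2 CPM (-0.75 ± 0.18). Genes of the γδ T cells that make IL-17 summed to 98.3 to 177 CPM in NKT2 and 3218 to 3702 CPM in NKT17. Of the 7, 6 were higher and 1 lower, with Sox13 at 132, 84.9 and 134 CPM against 7.70, 5.28 and 4.17 CPM (4.38 ± 0.34), and 3 of the 7 are also NKT17 genes. Regulatory T cell genes were higher in 2 and lower in 2 of 5, and Foxp3 was at or under 0.283 CPM. Of the thymic epithelium genes 0 of 2 were called, red cell genes had none tested, and 0 of 5 sex-linked genes were called. Xist was at 0.566, 299.6 and 0.750 CPM in NKT17 and 0.880, 333 and 0 CPM in NKT2, so replicate 2 of each subset differed in sex from replicates 1 and 3. The part of these transcripts and of sex in the results was not tested, but the counts without each library are given with the limits of the analysis.

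Most subset differences of the SKG thymus were called in WT too. In WT 2223 genes (20.0% of those tested) were called between NKT17 and NKT2. The 2 comparisons share no library. Some numbers in the sample titles occur in WT only or in SKG only. Where levels are compared across genotypes, what such a number stands for cannot be told apart from genotype. The sex of the WT libraries is not given here, and its part in those levels was not tested. Of the genes, 1349 were called in the same direction in both, which is 64.5% of the SKG calls and 60.7% of the WT calls, and 14 were called in opposite directions. A further 727 were called in SKG and not in WT, but the difference between the genotypes was itself called for 62 of these. In all, the difference between the SKG and the WT subset difference was called for 244 genes (2.19%), of which 127 were more positive and 117 more negative in SKG. This count depended on the analysis. It was 506 with a block for the number shared by sample titles in a fit of only the libraries compared, 155 at an adjusted p under 0.05, and 157 without SKG NKT17 replicate 1.

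**Figure D4:**
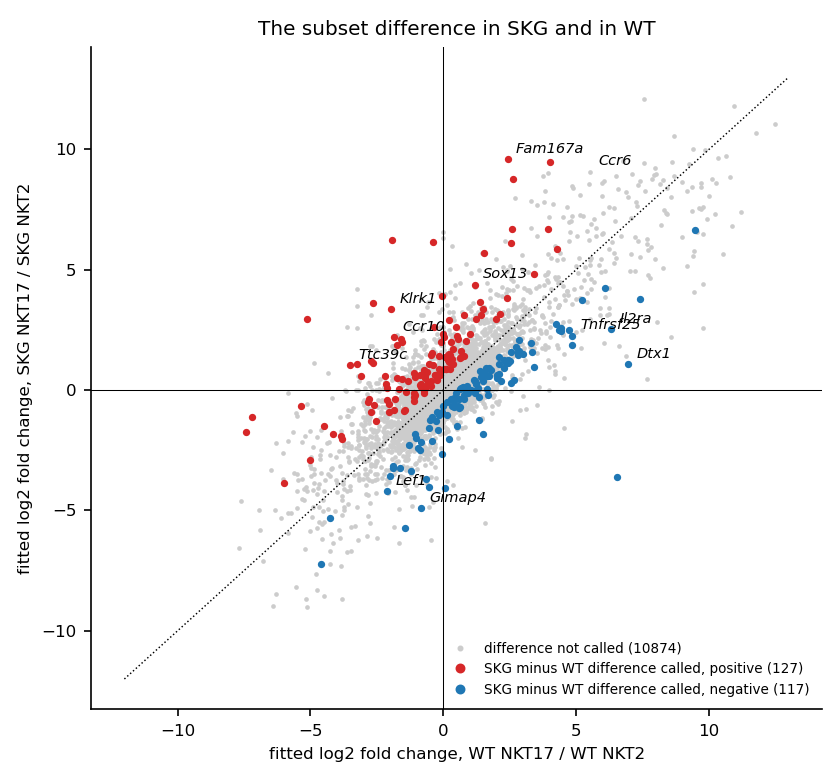
Each of 11118 genes tested is placed by its fitted log2 fold change of NKT17 over NKT2 in WT (x axis) and in SKG (y axis), with the line of equal change dotted. Red (127) and blue (117) points are genes whose SKG minus WT difference was called, and most other genes lie along the dotted line.

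Several NKT17 genes differed by less in SKG than in WT. Il7r (-0.93) and Aqp3 (-1.85) had a negative difference that was called. Il2ra was at 0.817, 0.175 and 2.42 CPM in WT NKT2 and 93.2, 93.7 and 100.3 CPM in WT NKT17, so that its log2 fold change of 6.32 in WT was larger than that of 2.53 in SKG (difference -3.79 ± 0.53, adjusted p = 5.5e-04). Dtx1 was at 0.408, 0.349 and 0.323 CPM in WT NKT2 against 54.2, 37.9 and 49.5 CPM in WT NKT17 (adjusted p = 5.9e-07 for the difference), where WT NKT2 held 2 counts per library. Tnfrsf25 was at 9.60, 5.76 and 6.94 CPM against 212, 217 and 216 CPM in WT (difference -2.59 ± 0.31, adjusted p = 6.0e-05). In all 3 genes Il2ra, Dtx1 and Tnfrsf25, the mean NKT2 level was higher in SKG than in WT. Qpct, a glutaminyl cyclase, was at 287, 344 and 289.7 CPM and 235, 288 and 219 CPM in SKG NKT17 and NKT2 but at 91.7, 115 and 104 CPM and 18.4, 14.8 and 19.4 CPM in WT (difference -2.25 ± 0.19, adjusted p = 2.0e-07). For Rarg (-1.40 ± 0.15) and the thrombin receptor F2r (-1.24 ± 0.14) too, the mean NKT2 level was higher in SKG than in WT. SKG was not tested against WT within NKT2, and these genes are described because their difference was called.

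Ccr6 was at 18.3, 3.65 and 14.1 CPM in WT NKT17 and 0, 0.524 and 0.161 CPM in WT NKT2, so every SKG NKT17 library was more than 20 times the level of every WT NKT17 library, a contrast that was not tested. The difference between the SKG and the WT fold was not called (adjusted p = 0.637), but WT NKT2 held at most 3 counts of Ccr6 per library, so the WT fold depends on the prior count. Il17a was at 33.9, 6.08 and 83.2 CPM in WT NKT17, above the SKG NKT17 level on average but with 1 library below it, and its difference was not called either (adjusted p = 0.962), with 1 count at most in any NKT2 library. For Il4 the WT levels were 110.1, 174 and 152 CPM in NKT2 and 21.8, 31.3 and 24.0 CPM in NKT17, and the difference was -0.46 ± 0.43 (adjusted p = 0.811).

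Lef1 and the GTPase Gimap4 were lowered more in SKG NKT17. Lef1 was at 86.6, 67.1 and 83.6 CPM in WT NKT17 against 8.21, 10.3 and 7.50 CPM in SKG NKT17 (difference of the subset differences -2.09 ± 0.29, adjusted p = 3.9e-04). Gimap4 was at 529.8, 328 and 636 CPM in SKG NKT2 and 23.2, 9.06 and 17.3 CPM in SKG NKT17, and at 584, 463 and 548 CPM and 317, 307 and 258 CPM in WT (difference -4.04 ± 0.38, adjusted p = 6.2e-05). The HMG factor Sox13 had the reverse: SKG NKT2 cells held 7.70, 5.28 and 4.17 CPM and WT NKT2 cells 181, 137 and 104 CPM, and the difference was 3.20 ± 0.43 (adjusted p = 6.8e-04). Integrin Itgb3, called in SKG, was at 178, 146 and 145 CPM and 193, 136 and 144 CPM in WT NKT17 and NKT2, with a difference of 2.32 ± 0.41 (adjusted p = 0.00598).

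The 6 genes with the smallest adjusted p on the positive side were Ttc39c, Fam129a, Ccr10, Litaf, Fhl2 and Gng2. Ttc39c was at 36.7, 31.5 and 34.7 CPM in SKG NKT17 and 14.5, 21.9 and 13.8 CPM in SKG NKT2, but at 8.19, 8.34 and 5.76 CPM and 92.9, 83.1 and 78.0 CPM in WT (difference 4.55 ± 0.27, adjusted p = 6.7e-10). The order of the subsets was thus reversed, and in both genotypes the libraries did not overlap. Ccr10, a skin-homing receptor, was at 26.7, 49.8 and 54.6 CPM and 8.14, 11.3 and 8.98 CPM in SKG and 20.9, 16.0 and 21.2 CPM and 98.2, 77.7 and 34.9 CPM in WT (difference 4.05 ± 0.50, adjusted p = 1.2e-04). Fhl2, a LIM-only protein, had log2 fold changes of 2.13 in SKG and -1.58 in WT. Fam129a was called in SKG (1.36 ± 0.12) and not in WT (0.06 ± 0.11), and Litaf and Gng2 were called lower in WT only (-1.08 and -1.55), with SKG values of 0.56 and 0.45. In SKG both came to be called without SKG NKT2 replicate 1 (0.64 for Litaf and 0.59 for Gng2), and Litaf also without SKG NKT17 replicate 3 (0.60).

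In all, 11 genes were higher in SKG NKT17 and lower in WT NKT17: Ttc39c, Ccr10, Fhl2, Klrk1, Apbb2, Atpif1, Bmp7, Dstn, Eng, Fam129b and Neurl3. For 3 genes, Gbp6, Irf8 and Kcnf1, it was the reverse. All 14 differences were called. Klrk1 had the log2 fold changes 3.38 in SKG and -1.96 in WT, with 2.93, 3.13 and 0.822 CPM in WT NKT17 and 13.3, 7.16 and 5.65 CPM in WT NKT2. Irf8, a factor of the interferon response, was at 2.69, 3.83 and 2.63 CPM and 4.62, 4.69 and 12.0 CPM in SKG NKT17 and NKT2 and at 26.9, 20.3 and 30.6 CPM and 12.3, 7.68 and 11.1 CPM in WT. Its SKG call was lost without SKG NKT2 replicate 3 (-0.61). The SKG call was also lost for Bmp7 without SKG NKT2 replicate 3 (0.63), for Gbp6 without SKG NKT17 replicate 3 (-0.57), for Apbb2 without SKG NKT17 replicate 3, SKG NKT2 replicate 1 or SKG NKT2 replicate 3 (1.55 to 1.74), and for Eng without SKG NKT17 replicate 2 or 3 or SKG NKT2 replicate 1 or 3 (0.54 to 0.60).

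**Figure D5:**
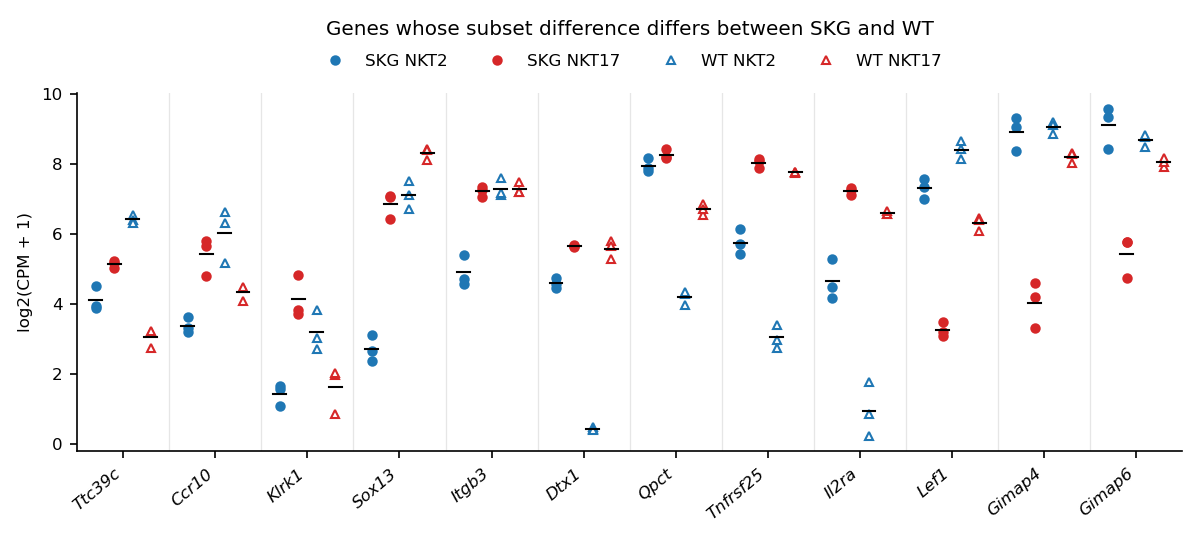
Levels of 12 genes whose subset difference was called as different between SKG and WT, as log2(CPM + 1) on the y axis, one point per library: filled circles are SKG, open triangles WT, blue NKT2, red NKT17, and bars are means of 3 libraries. Ttc39c, Ccr10 and Klrk1 have the subsets in opposite orders in the genotypes, and Gimap4 and Gimap6 are lowest in SKG NKT17.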

How the data were processed

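The counts were deposited as whole reads per gene for 18 libraries in 6 groups, and the authors made them from 50-base single-end reads with TopHat 1.4.1 and HTSeq after removing low-complexity, tRNA, rRNA and adapter reads. The methods name build mm9 and the submitters' notes name mm10. Strand and annotation are not given in the sources used here, so overlapping genes cannot be told apart. Another 2 columns matched no sample and were not used.

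Counts were tested with edgeR 4.0.16 (quasi-likelihood, robust, TMM, filterByExpr; R 4.3.3) over all 18 libraries, with contrasts within SKG, within WT and for their difference. A call needed a Benjamini-Hochberg adjusted p under 0.1 and a 1.5-fold change. Against a group with no count, a bound uses 3 counts per library. Intervals cover counting error only. Replicates differed by more than sampling noise (chi-square per degree of freedom 5.66 to 12.6). Members and lists were chosen with earlier results of these data known. Some lists share members, among them Cd28, Cd27, Cd6, Cd40lg, Myc and Maf, so their counts are not independent. Named genes are the 10 largest changes each way with a mean of 50 counts, up to 5 called members a list and direction by level, the smallest adjusted p of the difference, and marker and sort genes; not every gene so chosen is described, and some are not reported here. Alternatives were DESeq2 1.42.0, other size factors, filters and thresholds, fewer libraries, a replicate block and each library left out. Simulated counts with 200 altered genes were used to test the fit.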

Additional observations from a re-analysis of the deposited data

Results flagged for a closer look

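Each value here is the log2 fold change of NKT17 over NKT2 in SKG minus that in WT, from a contrast of the 4 groups in edgeR's quasi-likelihood test, for genes named above whose difference was called. More positive in SKG were Fam129b (6.26), Klrk1 (5.34), Ttc39c (4.55), Ccr10 (4.05), Fhl2 (3.71), Neurl3 (3.56), Sox13 (3.20), S1pr1 (3.00), Itgb3 (2.32), Gng2 (2.00), Ccr8 (1.92), Litaf (1.64), Bmp7 (1.55), Eng (1.5), Atpif1 (1.42), Dstn (1.35) and Fam129a (1.30). More negative in SKG were Gimap4 (-4.04), Il2ra (-3.79), Gimap6 (-3.06), Tnfrsf25 (-2.59), Irf8 (-2.58), Qpct (-2.25), Lef1 (-2.09), Bik (-1.87), Aqp3 (-1.85), Rarg (-1.40), Gbp6 (-1.33), Il21r (-1.26), F2r (-1.24), Il7r (-0.93), Ifngr1 (-0.77) and Itgb7 (-0.71).

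Less settled differences were those of Cd5 (-0.95), lost in 12 of 21 alternatives, Icos (0.65), lost in 11, Atp1b1 (-2.63), lost in 10, Rasgrp1 (-0.96) and Rora (-1.02), lost in 7 each, Klrd1 (4.71), lost in 6, and Cd6 (-0.74), lost in 4. That of Apbb2 (3.59) was lost in 7 of 20. Cxcr6 (-0.74) was lost without WT NKT17 replicate 2, and Kcnf1 (-3.30) without SKG NKT17 replicate 3. The values of Fam167a (7.17), Dtx1 (-5.88), Klrd1 and Atp1b1 rest on a group with at most 3 counts per library and depend on the prior count. That of Fam129b ranged from 5.73 to 10.19 over the alternatives, and was 10.19 without SKG NKT2 replicate 3, the 1 library of that group with any count of it, and 9.70 without WT NKT17 replicate 3. That of Il2ra was -5.07 without WT NKT2 replicate 3 and -3.27 without WT NKT2 replicate 2, that of S1pr1 was 3.90 without WT NKT17 replicate 2, and that of Ccr8 was 1.51 without WT NKT17 replicate 3.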

How the results depend on the processing

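Of the 2090 calls, between 72.4% and 100% were shared with each alternative. With no fold-change minimum 1412 genes were lower in place of 919, and Zap70, at 0.41, was called. The number of genes whose subset difference differed between SKG and WT was 244. It was 155 at an adjusted p under 0.05 and 506 with a replicate block in a fit of only the libraries compared. The cause of this change was not tested. In fits of the 6 SKG libraries alone, with and without the block, 3 NKT1 genes were called lower in place of 6. Ifng, Il12rb2 and Xcl1 did not pass the filter on low counts in those fits and were not tested there. Without 1 library each, calls ranged from 1835 to 2019 in total, from 1045 to 1120 higher and from 776 to 899 lower. The WT calls ranged from 2000 to 2249, the shared calls from 1233 to 1313, and the differences between SKG and WT from 157 (without SKG NKT17 replicate 1) to 256. NKT17 genes called higher stayed at 21 and NKT2 genes called lower at 15, NKT1 genes lower ranged from 4 to 6, proliferation genes from 21 to 23, proximal TCR genes from 13 to 14 and TCR restraint genes from 8 to 10. Zap70 ranged from 0.34 to 0.51. No called value changed sign, but the uncalled fold changes of Ccl5 (-0.99 to 0.79), Cd3g (-0.02 to 0.04), Igj (-6.02 to 8.55) and Xist (-7.37 to 7.98) did.

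Whether numbers shared by sample titles pair the libraries is not given in the labels: deviations of same-numbered SKG libraries correlated at 0.09, 0.21 and 0.09, short of the 0.1 asked of every pair, each library correlated best with its own number, and replicate 2 of both SKG subsets shared a sex. The replicate block gave 2299 calls. At 4391029 to 7055288 counts per library, genes with few counts, such as Il5 and Il17f, could not be compared.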

Other observations

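Some gene families outside the lists also differed between SKG NKT17 and SKG NKT2, and they were picked after their values were seen. All 8 Gimap genes tested, small GTPases of lymphocyte survival, were lower in SKG NKT17 (median log2 fold change -2.35), whereas 2 of the 8 were lower in WT NKT17 (median -0.47), and for 6 the difference between SKG and WT was called. Gimap6 was at 53.4, 25.8 and 53.1 CPM in SKG NKT17 and 644, 339 and 752 CPM in SKG NKT2, and replicate 2 was the lowest library of each subset. Of 9 interferon-induced Ifit and Oas genes tested, 6 were lower and 0 higher in SKG NKT17 (median -1.09) and 4 were lower in WT (median -1.21), with 1 difference between SKG and WT called. Of 11 guanylate-binding Gbp genes 7 were lower and 0 higher in SKG, 2 were lower and 1 higher in WT, and 2 differences were called. Over all genes tested 8.27% were lower in SKG NKT17. Of 5 Ms4a genes, 5 were lower in SKG and 5 in WT.

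Other families were higher in SKG NKT17. Of 7 calcium-binding S100a genes 6 were higher (median 1.06), and 3 in WT, and of 7 annexins 4 were higher in SKG and 2 in WT. The difference between SKG and WT was called for 1 S100a gene and 1 annexin, and over all genes tested 10.5% were higher in SKG NKT17. Of 5 semaphorins 4 were higher in both genotypes. Of 5 matrix metalloproteinases 4 were higher and 1 lower.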
